A study of Drosophila melanogaster with 4 samples.

Results

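Male flies exposed to hyperbaric normoxia (HN) during development were compared here with control males by gene expression. The HN males were w1118 flies, a laboratory strain with white eyes that the labels call wild type, kept at 2 atmospheres absolute under normoxic conditions from the egg until eclosion, and the control males were w1118 flies without that exposure. Both were sampled as whole bodies at an age of 10 days. RNA of 20 flies was pooled for each group and hybridized to 1 Agilent one-color array, so the comparison rests on 2 of the 4 arrays of the series, the other 2 being the HN and control females. With 1 array per group, a difference between HN and control males has no replicate check, and no p-value is given. Each pool is 1 sample, and a whole body mixes all tissues of the fly. Every probe that stood well above the array's background on at least 1 of the 2 male arrays was a member of the comparison, which gave 25586 of the 32162 probes.

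Differences between whole male and female flies arise largely in the reproductive organs. The testis expresses a large set of transcripts for meiosis and sperm assembly that other organs lack, and the accessory gland and ejaculatory duct make seminal fluid peptides, whereas transcripts of the ovary dominate the female. A male-biased probe in a whole fly therefore reports mostly on these organs, and a probe of like level in both sexes reports on shared tissues such as gut, muscle, fat body and epidermis. The epidermis lays down cuticle, a layer of chitin fibres and cuticle proteins, during development and in the young adult.

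The male arrays differed before any scaling. The median processed signal over probes was 452.7 on the HN male array and 355.6 on the control male array, a log2 difference of 0.35, and 79.1% of probes were well above background on the HN male array against 72.8% on the control male array. Negative control spots averaged 64.9 on the HN male array and 80.4 on the control male array. The 4 arrays lie on 1 slide, but the control male array was read in a scan of its own, so among the male arrays scan and treatment cannot be told apart. No spot was saturated. All signals given below were divided by the 50th percentile of their array and brought to a common level, and ratios are HN over control on the log2 scale.

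Sex-specific transcripts followed the labels. A probe of lncRNA:roX1, an RNA of the male dosage compensation complex, had signals of 15319 in HN males and 15932 in control males, against 83.6 in HN females and 448.9 in control females. A probe of lncRNA:roX2, another RNA of that complex, had 1115 in HN males and 986.8 in control males and was not well above background in either female group. Vm34Ca, a vitelline membrane protein of the eggshell, was not well above background on either male array and had signals of 29200 in HN females and 27253 in control females.

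Most probes differed little between HN and control males. A set of 23252 probes stood well above background in HN and control males alike. Of these, 74.2% lay within 1.2-fold and 95.8% within 1.5-fold, and their median log2 ratio was -0.07 with quartiles of -0.20 and 0.08. Repeat spots of 1 probe gave a standard deviation (SD) of the log2 ratio of 0.103 over 8334 probes, far inside a 1.5-fold change, which is 0.585 on the log2 scale. This error holds only what varies within 1 pool on 1 array, not what varies from pool to pool. More than 1.5-fold changes were counted in 1644 probes (6.43%). By that limit HN males had the higher signal for 1071 (4.19%) of the compared probes and the lower signal for 573 (2.24%). Of the higher probes, 519 were detected in HN males alone, and of the lower ones 157 in control males alone. Such probes entered the comparison only through the array where they were high. Among probes detected on both male arrays, 552 (2.37%) were higher and 416 (1.79%) lower. The 1071 probes are 65.1% of all that changed, a share that other settings of scaling and background moved to between 53.3% and 92.4%.

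Size changed this balance. At 1.2-fold, 3423 probes were higher and 3853 lower. At 2-fold, 329 were higher and 284 lower, and at 4-fold 76 were higher and 123 lower. Past 4-fold the lower probes were nearly all ones that had dropped out of detection. Among those detected on both arrays, 44 were higher and 12 lower by more than 4-fold, and 18 were higher and 2 lower by more than 8-fold. The remaining 111 probes lower by more than 4-fold were not well above background in HN males. The dim side was set no lower than the lowest signal well above background on its array. This was 5 in HN males and 10.6 in control males, which left more room for lower than for higher ratios. Dim signals above it were used as measured, so a ratio is a bound only where it was reached.

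**Figure D1:**
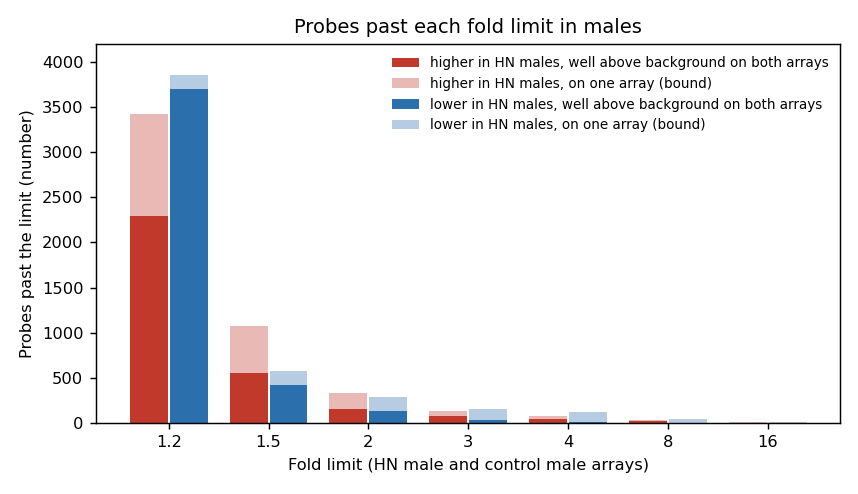
Number of probes past each fold limit in males. Red bars are probes higher and blue bars probes lower in HN males. Dark are probes detected on both male arrays and pale those detected on 1. The pale ratios are bounds only where the dim signal was raised to the lowest detected one. Past 4-fold the higher bar holds 76 probes and the lower bar 123, of which 44 and 12 were on both arrays.

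Few probes could be tied to a gene symbol. The files name probes by transcript identifier, accession or clone, and 557 probes (1.73%) of 472 genes received 1 symbol. Of these, 457 probes of 387 genes were compared in males. In this small set 23 probes (5.03%) passed 1.5-fold upward in HN males and 13 (2.84%) downward, and the median log2 ratio was -0.07, against -0.05 over all compared probes. The named set thus differed little from the whole array in how often it changed. The genes described next had the largest changes among those detected in both male groups.

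Genes of the cuticle headed the increases. Acp65Aa, a protein of the adult cuticle, had a signal of 8424 in HN males and 338.4 in control males, a log2 ratio of 4.64 or 24.9-fold. In females its signals were 30259 in HN and 1818 in control flies. Its HN signal was thus the higher one in both sexes, on a single probe that was named through a cDNA clone. Cpr97Eb, a cuticle protein of the family with a Rebers-Riddiford chitin-binding domain, had 789.6 in HN males and 235.3 in control males (log2 ratio 1.75), and 711.0 in HN females against 277.9 in control females. obst-B, a secreted chitin-binding protein of the obstructor family, had 2727 in HN males and 1136 in control males (log2 ratio 1.26). Its signals in females were nearly level, with 3989 in HN and 3928 in control females.

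The next genes had smaller increases. CG15021 was measured by a pair of probes, with 6899 and 6360 in HN males against 3302 and 2896 in control males, log2 ratios of 1.06 and 1.14. Jupiter, a microtubule-associated protein, had 52.5 in HN males and 29.7 in control males (log2 ratio 0.82), in the dim range where the ratio turned to -0.13 under another background correction (normexp). Argk1, the arginine kinase that buffers ATP in muscle and nerve, had 286.2 in HN males and 183.9 in control males (log2 ratio 0.64). epsilonTry, a trypsin-like protease, was among the brightest, with 40383 in HN males and 26862 in control males. Its log2 ratio of 0.59 lay just past the limit, with an SD over its 2 spots of 0.239. CG43897, CG6000, asRNA:CR42860, CG14191 and CG12483 completed the 12 largest increases, at log2 ratios between 0.56 and 0.86, of which CG12483 at 0.56 was inside the limit. Under normexp Argk1 (0.51), CG43897 (0.13), CG6000 (0.45) and asRNA:CR42860 (0.32) were inside it as well.

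Decreases among named genes were smaller than increases. The 12 largest ran between -0.86 and -0.55, and 9 of them passed 1.5-fold. Without scaling all 12 were inside the limit, between -0.51 and -0.21. CG6283 had a signal of 10718 in HN males and 18465 in control males (log2 ratio -0.78). In females its signals were 12316 in HN and 16821 in control flies. CG32425 had 22437 in HN males and 34555 in control males (log2 ratio -0.62), with an SD over its 2 spots of 0.0191, and 42406 in HN females against 40407 in control females. Both are bright probes, far from background. Ugt303A1, a UDP-glycosyltransferase, had 311.6 in HN males and 476.1 in control males (log2 ratio -0.61). Of these 3 genes, CG32425 and Ugt303A1 lay inside the limit under scaling to the 75th percentile, at -0.56 and -0.55, and under normexp, at -0.46 and -0.48.

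The remaining decreases were largely non-coding or dim. lncRNA:CR43301 had 151.3 in HN males and 274.2 in control males (log2 ratio -0.86), and its ratio was 0.09 under normexp. The RNA of the signal recognition particle, 7SLRNA:CR32864, had 7016 in HN males and 10419 in control males, a log2 ratio of -0.57, inside the limit. Mettl5, an RNA methyltransferase, had 156.7 in HN males and 230.1 in control males, a log2 ratio of -0.55 and likewise inside it. Signals of both were nearly level in females, with 13647 in HN and 13520 in control females for the particle RNA and 1550 in HN and 1536 in control females for Mettl5. asRNA:CR43609, CG6484, lncRNA:CR32027, lncRNA:CR33948, CG13049 and CG15533 made up the rest, at log2 ratios between -0.81 and -0.57. Under normexp CG6484 (-0.57), lncRNA:CR33948 (-0.45) and CG13049 (-0.54) were inside the limit.

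**Figure D2:**
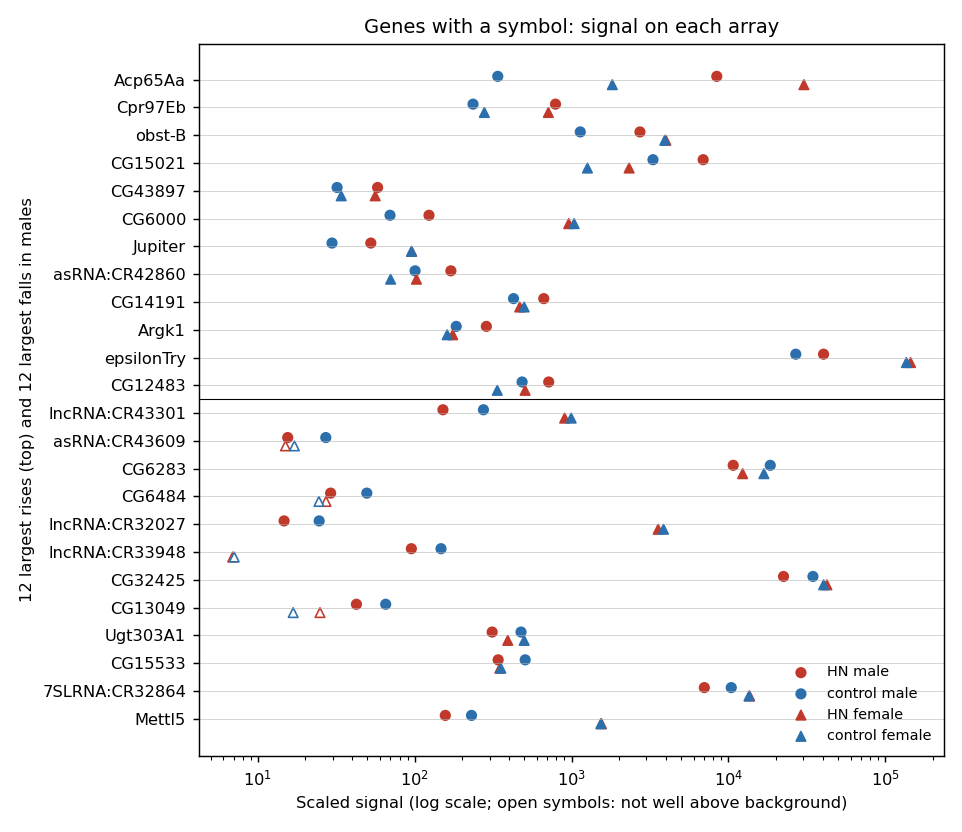
Scaled signal, on a log axis, of the 12 named genes with the largest increase (top) and the 12 with the largest decrease in males, 1 point per array. Red is HN and blue control, circles are males and triangles females, and open symbols are not well above background. Acp65Aa stood at 8424 in HN males and 338.4 in control males, farther apart than any other gene plotted.

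Large changes were also seen in transcripts without a symbol. FBtr0077021 had a signal of 10522 in HN males and 417.6 in control males (log2 ratio 4.66), and 35382 in HN females against 2229 in control females. FBtr0081692 had 659.0 in HN males and 30.5 in control males (log2 ratio 4.44), with an SD over its 2 spots of 0.0614. The largest decreases on both male arrays were seen for TC245316, with 10.4 in HN males and 92.1 in control males, and for FBtr0074798, with 10.7 in HN males and 92.9 in control males, log2 ratios of -3.15 and -3.12. Neither was low in HN females, at 70.2 against 65.9 in control females and at 81 against 69.7 in control females. Under normexp the log2 ratio was 0.48 for FBtr0074798, -1.33 for TC245316 and 2.96 for FBtr0081692.

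Gene lists for processes and tissues were thinly covered by the named probes. Of 126 cuticle protein genes 3 were named. Besides Cpr97Eb, Cpr49Ag had 4216 in HN males and 2947 in control males (log2 ratio 0.52) and Cpr60D had 498.0 in HN males and 489.7 in control males (0.02), so 1 of the 3 passed the limit. Of 29 genes of chitin metabolism only obst-B was named. Of the genes for heat shock and antioxidant proteins, muscle, cilia, yolk, flight muscle and head, 0 were named, and they are not described here. LysE, a lysozyme, had 13797 in HN males and 13598 in control males. The trypsin alphaTry of the midgut had 97760 in HN males and 93113 in control males, and slp1, a segmentation gene of the early embryo, had 195.2 in HN males and 213.9 in control males. Log2 ratios of these 3 genes were 0.02, 0.07 and -0.13, all inside the limit. The insulin-like peptides Ilp4 and Ilp6 were not well above background on either male array.

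Changes gathered in dim probes. The compared probes were divided into 10 groups of equal size by their mean signal on the male arrays. In the dimmest group, with a median signal of 16.7, 18% of probes passed 1.5-fold upward in HN males and 9.93% downward, and it held 43% of all higher and 44.3% of all lower probes. In the eighth group, with a median signal of 2225, 0.938% were higher and 0.469% lower. The shares rose again in the brightest group, to 2.11% higher and 1.06% lower. In the dimmest group only 14.2% of probes were detected well above background in both HN and control males. Of its 460 higher probes 3 were, and the others were not well above background in control males. Under normexp, which adds an offset of 50 to every signal, 7.35% of the dimmest and 4.69% of the brightest group had changed in either direction, against 27.9% and 3.17%.

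**Figure D3:**
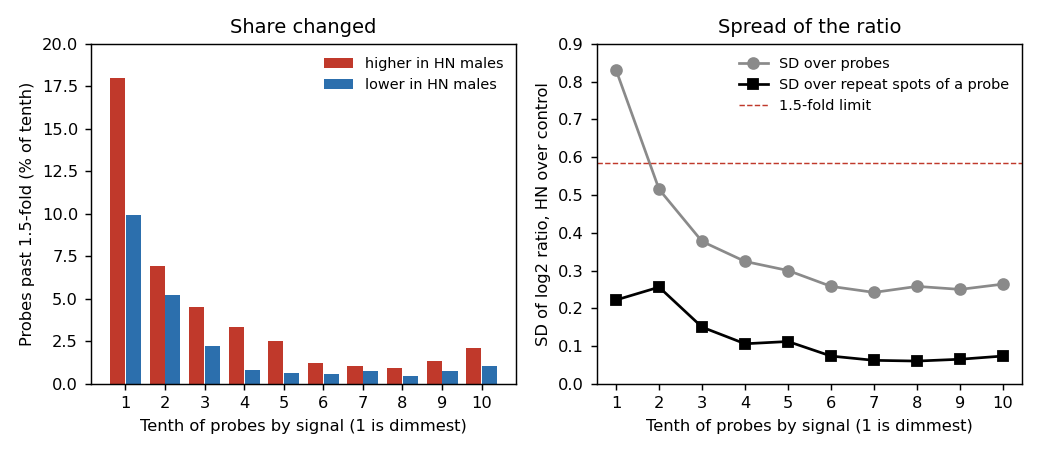
Left, percent of probes past 1.5-fold in each of 10 groups by signal, red for higher and blue for lower in HN males. Right, SD of the log2 ratio over all probes of a group (grey) and over repeat spots of 1 probe (black), with the 1.5-fold limit dashed. The share of higher probes was 18% in the dimmest and 0.938% in the eighth group, while the repeat-spot SD was 0.222 and 0.0602. The value of 0.222 rests on 23 probes with repeat spots detected on both male arrays.

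Spot-to-spot error was also largest in dim probes. The repeat-spot SD of the log2 ratio was 0.222 and 0.256 in the 2 dimmest groups, 0.0602 in the eighth and 0.0735 in the brightest. It was taken from spots well above background on both male arrays, which left 23 of 2559 probes in the dimmest group. There it does not cover probes detected on 1 array. The SD over different probes was larger in every group, 0.831 in the dimmest and 0.264 in the brightest. The arrays carry 200 probes printed 10 times, and 150 of them had 9 or more spots above background in each male group. For these the median SD over spots was 0.0615 and the median standard error 0.0196. Their ratios ran from -1.09 to 0.65, with a median of -0.08 and quartiles of -0.17 and 0.02. Of these probes, 3 were more than 1.5-fold higher and 2 more than 1.5-fold lower. More than 2 standard errors from 0 lay 118, a count that takes in any shift common to all probes. Such a standard error leaves out the pools, as above.

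The level of the ratio also drifted with signal. The median log2 ratio was 0.15 in the dimmest group, 0.01 in the next, -0.05 in the fifth and -0.12 in the ninth. In the dimmest group, the 364 probes detected on both male arrays had a median of -0.34, with 3 higher and 101 lower by more than 1.5-fold. To be among them a probe had to pass a higher signal in control males, where the lowest detected was 10.6, than in HN males, where it was 5. Most others in it were detected in HN males alone, where ratios below 0 were set to 0. Both medians of this group, 0.15 and -0.34, therefore depend on the filter and cannot be set beside those of brighter groups. Among the brightest 7 groups the decline was small beside the 1.5-fold limit.

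**Figure D4:**
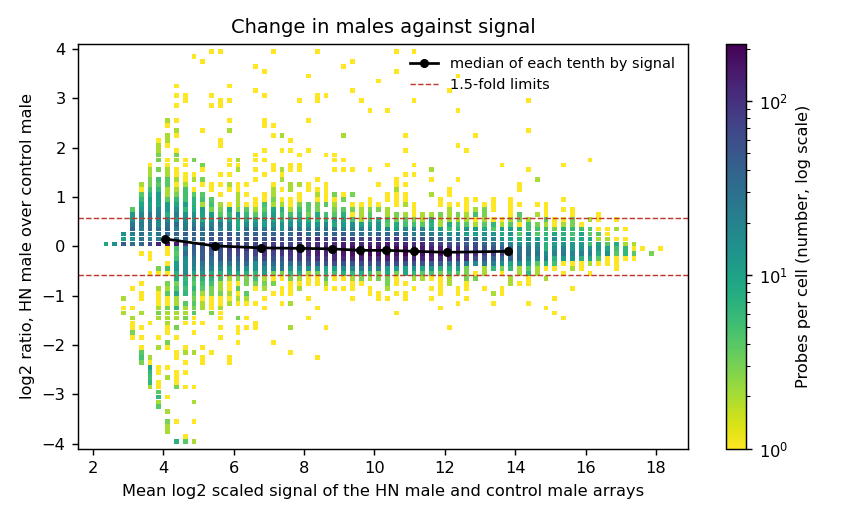
Log2 ratio of HN over control males against the mean log2 signal of both male arrays. Color gives the number of probes per cell on a log scale, black points the median of each of the 10 groups by signal, dashed lines the 1.5-fold limits, and ratios beyond 4 in either direction are drawn at the edge. The medians ran from 0.15 in the dimmest to -0.12 in the ninth group. In the dimmest group, the median was -0.34 for the 364 probes detected on both male arrays, and both medians of that group depend on the filter.

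Detection differed between the male arrays. Well above background in HN males alone were 2177 probes, and in control males alone 157. In females the corresponding numbers were 771 in HN and 538 in control flies. The 2177 probes were dim on both arrays, with a median signal of 17.9 in HN males and 14.6 in control males, and by their own signals 831 of them differed by more than 1.5-fold. Both female arrays detected 854 of these probes and neither detected 1051. The 157 probes had a median signal of 5, the floor, in HN males and 32.7 in control males, and 123 of them were on neither female array. The lower mean signal of negative controls in HN males, 64.9 against 80.4 in control males, moved with these numbers, and its part in them was not tested.

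Named genes were found on both sides. Among the genes detected in HN males alone, the brightest were Pxd, a peroxidase, with 51.5 in HN males and 24.1 in control males, Zip42C.2, a zinc transporter of the ZIP family, with 39.6 in HN males and the floor of 5 in control males, and CG31038, with 38.9 in HN males and 17.8 in control males. Their log2 ratios were 1.09, 1.91 and 1.13. That of Zip42C.2 is a bound, while the other ratios use control signals as measured, below detection. All 3 were detected in both female groups, where Zip42C.2 had 267.4 in HN and 108.1 in control flies. Only 2 named genes were detected in control males alone. These were lncRNA:CR34024, with 5 in HN males and 21.8 in control males, and Grl40a, a gustatory receptor-like gene, with 5.39 in HN males and 19.5 in control males. Under normexp the log2 ratios of Pxd, Zip42C.2, CG31038 and lncRNA:CR34024 lay between -0.08 and 0.23.

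Male-biased transcripts were slightly lower in HN males than the rest. A probe was called male-biased or female-biased when control males and control females differed by more than 2-fold, and this could be done for 25582 probes. The 4351 male-biased probes had a median log2 ratio of -0.20 (quartiles -0.30 and -0.09), the 12990 female-biased ones -0.05 (-0.17 and 0.09) and the 8241 others 0.03 (-0.13 and 0.21). Below 0 were 84.1% of the male-biased, 59.8% of the female-biased and 43% of the other probes, against 58.5% of all. The difference of -0.23 between male-biased and other probes amounts to 1.17-fold. Without scaling all 3 medians were above 0, at 0.21, 0.28 and 0.35. In whole bodies, fewer cells of a type and less RNA per cell cannot be told apart, and neither can treatment and the separate scan of the control male array.

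The shift was nearly the same at every strength of male bias above 8-fold. Probes 4 to 8-fold higher in control males than in control females had a median of -0.23, those 8 to 16-fold higher -0.21, those 16 to 64-fold higher -0.23 and those over 64-fold higher -0.20. With the bias taken from the HN arrays instead, the same 4 bins had medians of -0.13, -0.20, -0.22 and -0.20. The 1983 probes over 64-fold were bright, with a median signal of 3176, and narrow, with quartiles of -0.28 and -0.13. Of these, 94% lay below 0, but only 5 were more than 1.5-fold higher and 7 lower in HN males. Within each of the 7 brighter groups by signal, male-biased probes differed from others by between -0.27 and -0.16, and female-biased ones by between -0.11 and -0.04. In the dimmest group the order turned with the bias from the HN arrays, where male-biased probes had a median of 0.31 and other probes 0.16, and in the next group these medians were -0.08 and 0.06.

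With control flies as the basis, the control male array enters both the sex bias and the change, so that a probe that happened to be high on it counts as male-biased and as lower in HN males. Set on the HN arrays, where the HN male array is shared, the sex bias left the medians over each whole class nearly in place, with -0.19 in 4134 male-biased, -0.07 in 12669 female-biased and 0.04 in 8777 other probes. The counts past 1.5-fold did not stay. With the bias from the HN arrays, 186 male-biased probes (4.5%) passed the limit upward and 83 (2.01%) downward. With the bias from the control arrays, 70 (1.61%) passed it upward and 259 (5.95%) downward. Of probes with a 4 to 8-fold male bias, 2.92% were lower in HN males by the HN arrays and 22.2% by the control arrays. The counts of male-biased probes past the limit thus depended on the arrays that defined the bias, and so did the medians of dim or weakly biased probes. In the dimmest group by signal, male-biased probes had a median of 0.31 by the HN arrays and -0.13 by the control arrays, and at a 2 to 4-fold male bias the medians were 0.00 by the HN arrays and -0.10 by the control arrays. With the sex bias taken from 1 spot and the change from the other spots of the same probes, the medians were -0.20 in 1674 male-biased and 0.01 in 2407 other probes, but both still share the RNA and the array.

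**Figure D5:**
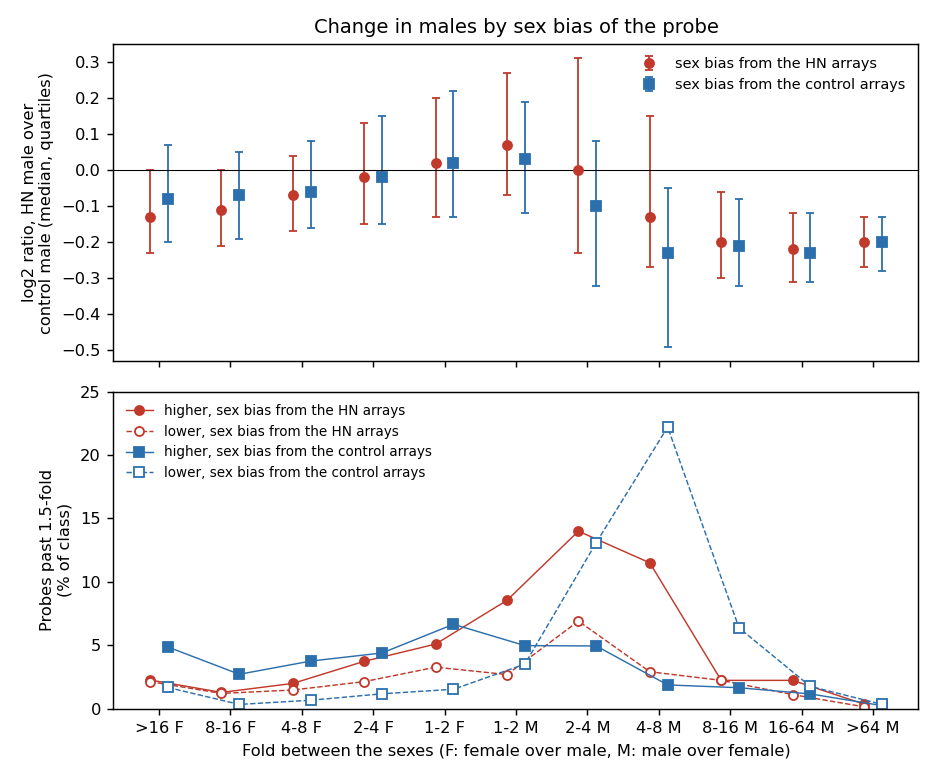
Change in males by the fold between the sexes, from strongly female-biased (left) to strongly male-biased (right). Top, median and quartiles of the log2 ratio of HN over control males. Bottom, percent of probes past 1.5-fold, filled for higher and open for lower in HN males. Red takes the sex bias from the HN arrays and blue from the control arrays. Over 64-fold male bias both medians were -0.20, whereas at 4 to 8-fold the share of lower probes was 2.92% by the HN arrays and 22.2% by the control arrays.

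Which probes count as male-biased depends on the scaling between sexes. With the 75th percentile, the male over female ratio of every probe moved up by 1.61 on the log2 scale and 10702 probes counted as male-biased. Their median was -0.01 against 0.03 for other probes, a difference of -0.04 in place of -0.23. For probes over 64-fold male-biased the difference from the remaining probes was -0.17 under both scalings.

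Named male-biased genes had a like median. Of 112 named probes of 96 genes in this class, 93 lay below 0, with a median log2 ratio of -0.22, and 2 were more than 1.5-fold higher and 5 more than 1.5-fold lower. Over all compared probes, 58.5% lay below 0, 4.19% were higher and 2.24% lower. The 5 lower ones include lncRNA:CR34024 and Grl40a, which were detected in control males alone. Among genes detected in both male groups, the largest increase was that of CG15021 (1.06), followed by asRNA:CR43471 (0.20) and lncRNA:CR32218 (0.14), and the largest decreases were those of CG6484 (-0.77), lncRNA:CR33948 (-0.63) and CG13049 (-0.62). Under normexp asRNA:CR43471 had a log2 ratio of -0.23. Genes of the male organs did not all follow the median. hale, on the list of testis genes, had 1780 in HN males and 1739 in control males, and Dup99B, a peptide of the ejaculatory duct, had 5053 in HN males and 5111 in control males, log2 ratios of 0.03 and -0.02. Another testis gene, soti, was not well above background on any array.

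Clone names give a second view of tissue. Part of the probes carry the name of a cDNA clone whose prefix tells the library it came from, a grouping chosen after the identifiers had been seen. Of 130 compared probes from the adult testis library, 90 were male-biased, and all 130 had a median log2 ratio of -0.18 (quartiles -0.27 and 0.03). The 90 male-biased ones had a median of -0.19, with 71 below 0, and the other 40 a median of 0.00, with 19 below 0. These 90 are part of the male-biased class above, and the split uses the control male array, which also enters the ratio. Probes from adult head (235), ovary (74) and embryo (173) libraries had medians of -0.00, -0.05 and -0.05. Of the 130 testis probes 2 passed 1.5-fold upward and 2 downward, against 4.19% and 2.24% of all compared probes.

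The female arrays share no array with the male comparison, so the female ratio can be set beside the size of the male one. For this, only probes detected on each of the 4 arrays were taken. Of the 35 probes more than 4-fold higher in HN males, 68.6% were more than 1.5-fold higher and 28.6% more than 1.5-fold lower in HN females, with a median female log2 ratio of 2.27. Of the 104 probes that were 2 to 4-fold higher, 47.1% were also higher and 10.6% lower in HN females, and of the 356 that were 1.5 to 2-fold higher, 23.6% were higher and 3.09% lower. Of the 198 probes 1.5 to 2-fold lower in HN males 12.1% were lower and 2.02% higher in HN females. Of the 72 that were 2 to 4-fold lower, 16.7% were lower and 8.33% higher, and of the 7 beyond that 1 probe was lower and 0 were higher. Among probes within 1.5-fold in males, 0.995% were higher and 1.03% lower in HN females. Over the 21490 probes compared in both sexes, 3.16% were higher and 2.28% lower in HN females. That set is wider, since it takes in probes detected on 1 array of a pair, so its shares are not a matched background.

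Several probes of 1 transcript offered another view of single calls. Among transcripts with 2 or more probes detected on both arrays, 143 had at least 1 more than 1.5-fold higher in HN males. In 44 of these (30.8%), at least 1 further probe was past the limit. Where the highest probe was more than 2-fold higher, this held for 21 of 33 (63.6%). Over all probes detected on both male arrays, 2.37% were more than 1.5-fold higher and 1.79% lower. With more than 2 probes, the second most extreme was taken, which favors agreement. Of 96 transcripts with a probe more than 1.5-fold lower, 22 (22.9%) had a further one past the limit, and past 2-fold 12 of 35 (34.3%). Probes of 1 transcript share the RNA and the array, and where they lie in the transcript was not used here.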

How the data were processed

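Whole-body RNA of HN and control males, and of both female groups for the sex bias, had been measured on Agilent one-color arrays, 20 flies pooled and 1 array per group. From 25 ng of total RNA, 1650 ng of labeled cRNA was made for a hybridization of 17 h, per the methods. The authors deposited the intensity of every spot as Feature Extraction 11.5.1.1 gave it (the methods name an earlier release), background-subtracted and not scaled between arrays, and a table with 1 intensity per probe. The methods set values under 5 to 5 and normalize each chip to its 50th percentile, in that order. Here the floor of 5 was set after the scaling.

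Control spots and outlier spots were left out, log2 signals were averaged over the spots of each probe, and arrays were scaled to their 50th percentile over probes and to 1 common level, with a floor of 5. A probe was well above background where 50% or more of its spots were, and was compared if so on at least 1 male array. The dim side of a ratio was set to the lowest signal well above background on that array where its own signal was below it. Probes past 1.5-fold were counted. A script was tested on simulated data with known changes before use. Python 3.11.15 (numpy 2.4.6, pandas 2.3.3) and limma 3.58.1 in R 4.3.3 were used. The mean signal per spot was not used here, so normexp (offset 50) took median signals and median local backgrounds. The number of arrays limits the precision.

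Named genes are the 12 largest increases and the 12 largest decreases among genes with a symbol on both male arrays (by the probe nearest to 0), the 3 largest each way per class of sex bias, the 3 brightest gained and lost, members of the lists, and at most 2 unnamed identifiers each way. Symbols came from RefSeq genes of the Release 6 assembly by accession, clone or synonym, and 25 probes with several symbols stayed unnamed. Coordinates are not given, since the probes were designed on an older assembly. Acp65Aa stood in the accessory gland list by its name and is described as the cuticle protein it is. Members and lists were chosen with earlier results of these data known. Alternatives were other scalings, filters, limits, background corrections and definitions of sex bias.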

Additional observations from a re-analysis of the deposited data

How the results depend on the processing

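Against 1071 higher and 573 lower probes, no scaling gave 3797 and 314, normexp 461 and 379, and a 2-fold limit 329 and 284. Probes well above background on all 4 arrays, a setting added after seeing the data, gave 495 and 277. Higher probes numbered 1998 with loess within the male arrays, 689 with the table of probe values and 552 on both male arrays, and lower probes 1311 with no filter. Fewer probes or a higher limit lower such counts by construction. The share of higher among changed probes, 65.1%, was 92.4% without scaling, where the median of all ratios was 0.29 against -0.05, 80% with loess, 54.9% under normexp and 53.3% with the table. For loess, normexp and the table the cause was not tested.

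The changed share of the dimmest group, 27.9%, was 30.6% with the 75th percentile, 30.7% with the percentile over probes on both male arrays, 24.3% with quantile normalization, 50.9% without scaling, 58% with loess, 7.35% under normexp, 14.1% with the table, 13.5% on both male arrays, 12.7% at 2-fold and 40.1% where dim signals were used as measured. It was 0% with no filter, where the dimmest probes lay at the floor on both arrays. That of the brightest, 3.17%, was 11.2% without scaling, 4.69% under normexp and 0.665% at 2-fold.

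The difference of male-biased from other probes, -0.23, was -0.04 with the 75th percentile, which moves probes between classes, and -0.09 under normexp. It was -0.13 with quantile normalization and -0.14 both without scaling and with the percentile over probes on both male arrays. In the other 12 of 17 settings it lay between -0.23 and -0.20. It was -0.22 as a mean over the groups by signal, which was added after seeing the data. That of female-biased probes, -0.08, ran from -0.11 to 0. Of 378 ratios of 42 named probes, 272 moved by less than the repeat-spot SD of a single ratio, 0.103, and 49 changed side of the limit. No scaling adds 0.35 to every male ratio, and the other percentile scalings add a smaller common amount. The count of 272 was thus in part fixed by the settings. Of ratios past the limit, 3 turned in sign, those of Jupiter (-0.13), lncRNA:CR43301 (0.09) and FBtr0074798 (0.48), each under normexp, and the cause was not tested. Inside the limit, asRNA:CR43471 and LysE changed sign under normexp, slp1 without scaling, and Dup99B, at -0.02, in 6 settings. Counts of detection stayed within 1.5 times.

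No paired analysis was possible because each group has 1 array and the labels give no replicate numbers, and leaving out an array leaves no comparison. Signals near background limit the dimmest group, where most probes were detected on 1 male array alone.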

Other observations

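Small families with a symbol, looked up after their values had been seen, lay inside the 1.5-fold limit in males. All 5 spliceosomal snRNAs, the RNAs that build the splicing machinery, had negative log2 ratios, from -0.33 for snRNA:U12 to -0.19 for snRNA:U2:34ABb with a median of -0.27, and snRNA:U1:21D had 5804 in HN males and 6961 in control males. Over all compared probes, 58.5% lay below 0. In females the log2 ratios of the same 5 probes lay between 0.11 and 0.31, and snRNA:U1:21D had 51201 in HN and 41166 in control females. Without scaling, which adds 0.35 to every male ratio, the 5 male ratios would lie above 0.

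Of 5 genes of mitochondrial ribosomal proteins 1 had a negative ratio, and their log2 ratios ran from -0.09 for mRpS16 to 0.12 for mRpS24. The respiratory complex I subunit ND-39 had 32689 in HN males and 23507 in control males (log2 ratio 0.48). Another subunit of the complex, ND-B14.5AL, which was not well above background in females, had 2809 in HN males and 3506 in control males (log2 ratio -0.32). ND-B14.7 and ND-B17.2 had log2 ratios of 0.13 and 0.10.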
